A study of Mus musculus with 68 samples.

Results

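Among mammary tumours of a mouse backcross, 14 stood apart by a high level of Ms4a1, the gene of the B cell surface protein CD20, and these 14 Ms4a1-high tumours are described here across all other genes. The deposited table holds 68 arrays, and the members were taken from the 56 arrays whose mean over the 18S ribosomal RNA control probe sets lay below 8 on the log2 scale. The members were chosen by the measured level of Ms4a1: a tumour was a member if the Ms4a1 probe set with the highest mean read above 5, and the other 42 tumours, at 5 or below, are what they were compared with. The lowest member, tumour 3738, read 5.25 and the highest tumour below the threshold read 4.31. Ms4a1 therefore made the split, and its own values carry no test.

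All animals carried the MMTV-PyMT transgene, in which a mouse mammary tumour virus promoter drives the polyoma middle T oncogene in mammary epithelium. They came from crossing (NZB x PyMT) hybrids back to FVB, so that both the Ms4a1-high and the other tumours share the transgene and the cross. They differ in no label of group or treatment. A suffix R, whose meaning the labels do not give, follows the animal number of 1 of the 14 Ms4a1-high and 7 of the 42 other tumours. Animal numbers of 4000 or above, the upper numbers, belonged to 2 of the 14 and 13 of the 42. The tumours were spontaneous, with no treatment named in the labels, and each of the 56 arrays is a separate animal number. No age or histology was used here.

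B cells carry an antigen receptor made of an antibody and the signalling chains CD79A and CD79B, and they meet T cells in lymph nodes and in similar clusters that can form inside inflamed or tumour tissue. In such tissue, stromal cells release the chemokine CXCL13, which draws B cells through the receptor CXCR5, and lymphocytes carry the lymphotoxin that keeps those stromal cells active. Lymph node sinuses and the splenic marginal zone also hold scavenger macrophages that display MARCO and the C-type lectin SIGN-R1, the product of Cd209b in mice. A mouse mammary fat pad contains its own lymph node. In a bulk sample, more cells of a type and more RNA per cell cannot be told apart.

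The 14 members were not spread evenly over the array sets, groups of arrays that share level shifts in many probe sets and that the labels do not name. Array set 1 held 13 of the 14 Ms4a1-high tumours and 26 of the 42 other tumours, array set 3 held 1 and 8, and array set 4 held 0 and 8 (array set 1 against the rest, Fisher's exact test, two-sided, p = 0.0428, adjusted over 7 technical measures 0.275). The 18S mean was 6.003 ± 0.219 in Ms4a1-high tumours and 5.871 ± 0.439 in other tumours (log2, SD, n = 14 and 42, permutation test, two-sided, adjusted p = 0.538). The difference of the 3' and 5' Gapdh probe sets, a measure of RNA quality, was -0.10 ± 0.08 in Ms4a1-high tumours and -0.03 ± 0.14 in other tumours (permutation test, adjusted p = 0.275). Because of the array sets, a gene is called higher or lower below only if limma's Benjamini-Hochberg adjusted p was under 0.05 both without and with array set as a block.

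Ms4a1 itself ranged from 5.25 to 7.11 in the Ms4a1-high tumours, with a median of 6.19, against 3.29 to 4.31 in the other tumours, with a median of 3.73. Its second probe set, which the rule did not use, read 3.11 to 6.23 in the Ms4a1-high tumours and 2.18 to 2.79 in the other tumours, again with no overlap. Cd79a, Ighv14-2 and Marco were named as markers of these tumours from earlier results, so that they too are given without a test. Cd79a, a signalling chain of the B cell receptor, read 4.49 to 6.65 (median 5.73) in Ms4a1-high tumours and 4.03 to 4.81 (median 4.45) in other tumours. All Ms4a1-high tumours but 1 lay above every other tumour for Cd79a. Ighv14-2, an antibody heavy chain variable gene, read 5.01 to 7.82 (median 6.87) in Ms4a1-high tumours and 3.52 to 4.45 (median 3.76) in other tumours. It separated the groups without overlap, with an 8.31-fold higher mean. The scavenger receptor Marco read 4.40 to 8.13 (median 6.89) in Ms4a1-high tumours and 3.92 to 5.03 (median 4.31) in other tumours. For Marco, 12 of the 14 lay above every other tumour.

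Of 12556 genes tested, limma called 351 higher (2.8%) and 37 lower (0.295%) in Ms4a1-high tumours without the block. With array set as a block it called 236 higher (1.88%) and 12 lower (0.0956%), and 219 genes (1.74%) were higher and 7 (0.0558%) lower in both fits. Of the 219, 75 were members of the gene lists for cell types and processes and 144 were in none. Of the 219, 181 passed the filter on low values in the other tumours alone and the rest passed it only through the Ms4a1-high tumours; all 219 were also called in both fits without the filter. Without the filter, all 14 Ms4a1-high tumours lay above all 42 other tumours for 4 of 18193 genes (0.022%), namely Ighv14-2, Cd79b, Bank1 and the complement receptor gene Cr2. Since a B cell gene made the split, genes of the same cells had to differ with it, and their calls describe the split. In array set 1 alone limma called 198 genes higher (1.58%) and 6 lower (0.0478%). The counts of calls depended on single tumours. Leaving out tumour 3825 gave 216 genes higher and leaving out tumour 3864 gave 207, and the count of lower genes fell to 18 without tumour 2424, 22 without 3290, 21 without 3296, 22 without 3547, 12 without 3825 and 13 without 3864, all without the block. For the lists, calls were made without the filter over 18193 genes, since some members pass it only through the Ms4a1-high arrays. Of the B cell genes, 27 passed over all arrays but 20 in the other tumours alone. In that unfiltered fit 330 genes (1.81%) were called higher and 11 (0.0605%) lower, against 467 (2.57%) higher and 40 (0.22%) lower without the block. The 1.81% is the share against which each list's count is to be read.

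**Figure D1:**
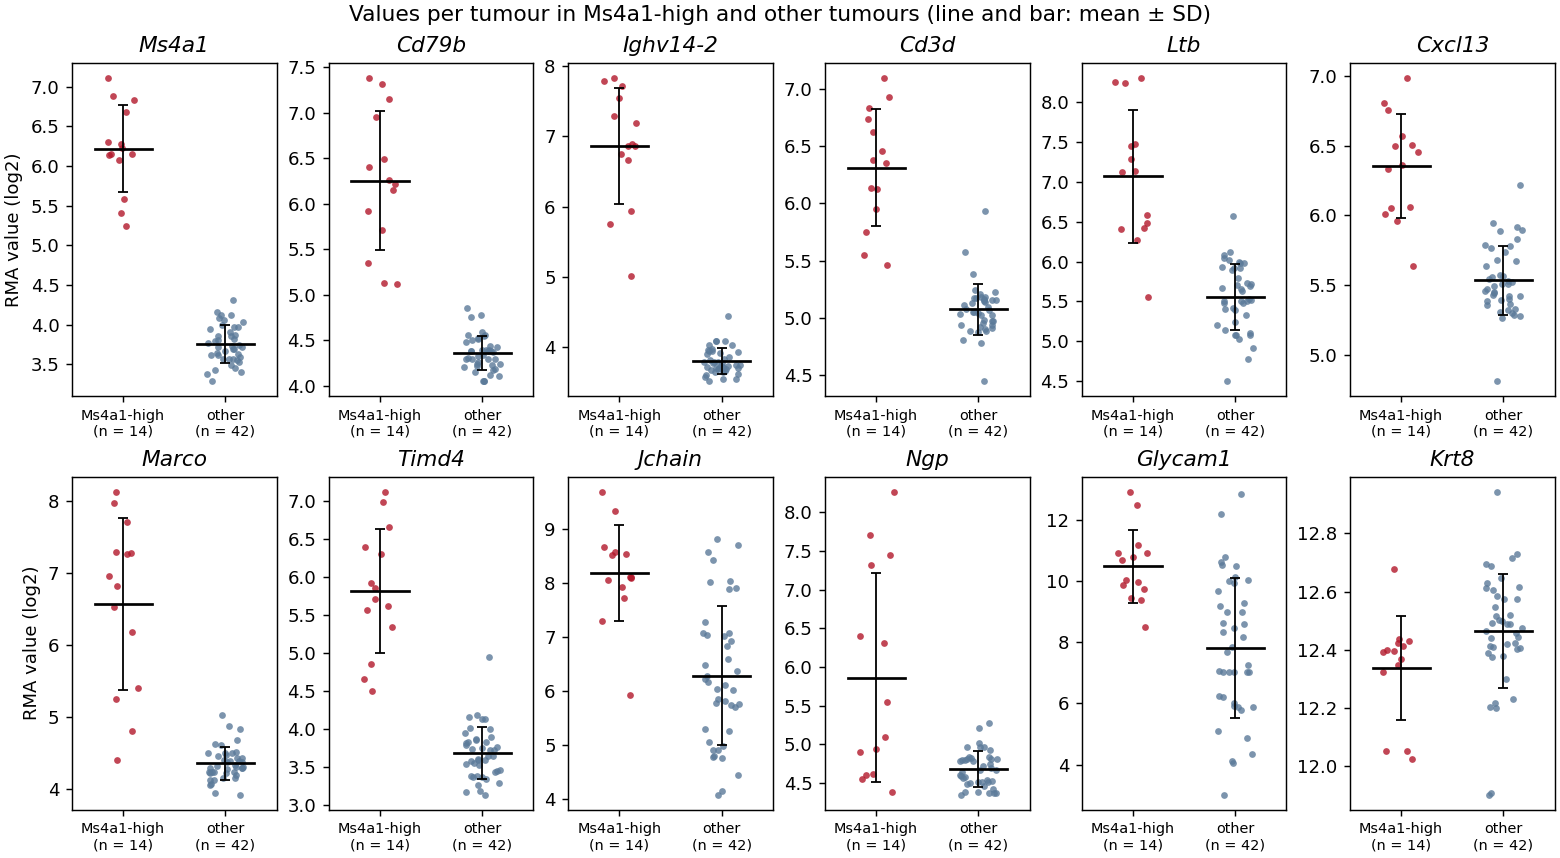
RMA values (log2) of 12 genes in each of the 14 Ms4a1-high tumours (red, left) and the 42 other tumours (blue, right), with a point per tumour and the mean ± SD in black. Ms4a1, Cd79b and Ighv14-2 separated the groups without overlap, Jchain and Glycam1 overlapped widely, and the epithelial keratin gene Krt8 lay between 12.03 and 12.68 in the Ms4a1-high tumours, inside the range of the other tumours.

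Of 38 measured members of the B cell list, 23 were called higher and 0 lower (22 of 37 without the marker Cd79a), with a median log2 difference of 0.39 over the list, against -0.01 over all genes. Cd79b, the partner chain of Cd79a, read 5.12 to 7.38 (median 6.24) in Ms4a1-high tumours and 4.05 to 4.85 (median 4.35) in other tumours. Its lowest values among the members belonged to tumours 2421 and 3738, both still above every other tumour, and its log2 difference was 1.89 ± 0.12 (SE, limma without the filter, adjusted p = 3.88e-18). The adaptor gene Bank1, whose product links the B cell receptor to calcium release, read 4.41 to 6.38 in Ms4a1-high tumours and 3.28 to 4.18 in other tumours, a log2 difference of 1.64 ± 0.11 (SE, also without the filter, adjusted p = 3.88e-18). Cr2, the complement receptor of mature B cells and follicular dendritic cells, read 4.06 to 6.16 in Ms4a1-high tumours and 3.28 to 3.97 in other tumours, with a difference of 1.32 ± 0.10 (SE, unfiltered fit, adjusted p = 8.72e-16). These 3 genes had no value in common between the groups. H2-Ob, a chain of the peptide-loading regulator that B cells make, rose by 2.07 ± 0.17 and the IgM Fc receptor gene Fcmr by 1.65 ± 0.13 on the log2 scale (SE). Cxcr5, the receptor for CXCL13, rose by 0.85, and Fcer2a, the low-affinity IgE receptor of follicular B cells, by 0.65. The transcription factor gene Spib rose by 1.32. Pou2af1, a coactivator of the octamer-binding factors, rose by 1.85, although 1 other tumour read 9.13, above the highest value of 7.20 among the Ms4a1-high tumours. The members that were not called included the B lineage factor gene Pax5, at 5.20 ± 0.12 in Ms4a1-high tumours and 5.19 ± 0.12 in other tumours (SD, n = 14 and 42), with a log2 difference of 0.02, and Blnk and Pou2f2. The second Pax5 probe set differed by -0.04. Of 21 genes of B cell receptor signalling, many of them used by all leukocytes, 9 were called higher and 0 lower (median 0.28), among them the phosphatase gene Ptprc (0.85), which encodes CD45, and Prkcb (0.51).

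Promoter windows of 4 risen lymphocyte genes are shown because they hold short motifs of the ETS, EBF and octamer factor families, which act in B cells. The windows are RefSeq sequences on GRCm38.p6, 300 bases each around the gene start, read on the gene's own strand, with the motif in capitals. Cd37, a tetraspanin of B cells, lies at chr7:45238790-45239089 on the minus strand, Fcrl1, an Fc receptor-like gene of B cells, at chr3:87376137-87376436 on the plus strand, Cd22, an inhibitory coreceptor of B cells, at chr7:30878979-30879278 on the minus strand, and the chemokine receptor gene Ccr6 at chr17:8235793-8236092 on the plus strand.
Cd37: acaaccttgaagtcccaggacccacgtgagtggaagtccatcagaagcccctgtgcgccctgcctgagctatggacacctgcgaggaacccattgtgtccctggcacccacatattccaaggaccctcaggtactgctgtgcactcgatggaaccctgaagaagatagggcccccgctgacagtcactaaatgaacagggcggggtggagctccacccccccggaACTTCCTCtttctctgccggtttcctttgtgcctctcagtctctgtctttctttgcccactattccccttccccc
Fcrl1: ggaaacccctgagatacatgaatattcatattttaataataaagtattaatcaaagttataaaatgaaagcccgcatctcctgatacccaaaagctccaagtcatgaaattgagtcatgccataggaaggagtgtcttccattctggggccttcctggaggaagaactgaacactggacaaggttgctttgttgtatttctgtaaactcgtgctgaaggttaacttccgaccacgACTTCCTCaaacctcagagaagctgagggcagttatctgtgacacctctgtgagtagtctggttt
Cd22: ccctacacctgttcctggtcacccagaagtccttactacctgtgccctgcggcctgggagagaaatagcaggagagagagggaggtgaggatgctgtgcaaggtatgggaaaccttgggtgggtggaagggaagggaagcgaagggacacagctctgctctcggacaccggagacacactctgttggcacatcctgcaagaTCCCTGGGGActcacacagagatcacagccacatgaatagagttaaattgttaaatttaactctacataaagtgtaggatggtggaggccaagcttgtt
Ccr6: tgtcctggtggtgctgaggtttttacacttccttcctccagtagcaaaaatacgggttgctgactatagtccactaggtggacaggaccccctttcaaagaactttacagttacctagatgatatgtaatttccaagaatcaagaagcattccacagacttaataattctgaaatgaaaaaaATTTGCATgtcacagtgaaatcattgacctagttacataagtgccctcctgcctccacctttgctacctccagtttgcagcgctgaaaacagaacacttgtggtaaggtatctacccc
Cd37 rose by 0.82, Fcrl1 by 0.92, Cd22 by 0.71 and Ccr6 by 0.39 on the log2 scale in Ms4a1-high tumours. The motifs were chosen after the values were seen and searched on both strands, with no test. The PU box letters GAGGAAGT, shown in Cd37 and Fcrl1 on the opposite strand, were in a window of 12 of the 154 genes called higher that had one (7.79%), against 3.63% of the 10093 tested genes with a window and 3.20% of all 32851 windows. The EBF palindrome, TCCC and GGGA with 2 free bases between them, shown in Cd22, was in 6 of the 154 (3.90%), against 1.31% of tested genes and 0.904% of windows. The octamer ATGCAAAT, shown in Ccr6 on the opposite strand, was in 4 of the 154 (2.60%), against 1.60% of tested genes and 1.74% of windows. The letters TGACGTCA, a cAMP response element taken for comparison, were in 0 of the 154, against 3.45% of tested genes and 1.79% of windows. No motif contains another, and a match does not show that a factor binds.

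Antibody genes rose in part. Of 22 measured members of the immunoglobulin and plasma cell list, 7 were called higher and 0 lower (6 of 21 without the marker Ighv14-2), with a median log2 difference of 0.15. Jchain, whose product joins IgM and IgA into polymers, read 5.93 to 9.69 (median 8.11) in Ms4a1-high tumours and 4.09 to 8.82 (median 6.14) in other tumours. The groups overlapped, with only tumours 3547 and 4957R above every other tumour, and the log2 difference was 1.90 ± 0.36 (SE, limma adjusted p = 0.000325, with the block 0.00373). Igkv8-30, as the annotation names a kappa light chain probe set, rose by 2.10 ± 0.33 (adjusted p = 7.86e-06). Probe sets of antibody and T cell receptor segments can bind transcripts of related segments, so the segment itself is uncertain. Igha, the IgA heavy chain, read 8.01 to 11.35 in Ms4a1-high tumours and 6.79 to 11.51 in other tumours and was not called (log2 difference 1.02, adjusted p = 0.121). Mzb1, a chaperone of antibody assembly, rose by 0.72. The plasma cell genes Xbp1 (0.04), Sdc1 (-0.20), Prdm1 (-0.24) and Derl3 (-0.06) were not called, and these factors are also made by epithelium. Ighm depended on the probe set. The one with the highest mean differed by 0.37 (adjusted p = 0.0114, with the block 0.0593), whereas the one with the largest SD read 9.04 in Ms4a1-high tumours and 6.82 in other tumours on average, a difference of 2.22 ± 0.25 (SE, adjusted p = 6.84e-10).

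Of 30 measured T cell genes, 20 were called higher and 0 lower, with a median log2 difference of 0.33. Of these 30, 17 passed the filter on low values, 13 of them in the other tumours alone, and with the filter and no block 10 were called; keeping only genes with a mean above the median of all values left 6 called, and 7 of the B cell genes. Cd3d, a signalling chain of the T cell receptor, read 5.46 to 7.10 (median 6.37) in Ms4a1-high tumours and 4.45 to 5.93 (median 5.06) in other tumours. Of the 14, 11 lay above every other tumour, and tumours 3572, 3738 and 4957R did not. Cd3d passed the filter on low values only through the Ms4a1-high tumours, and it was called without the filter too. The difference was 1.24 ± 0.10 (SE), and the neighbouring chain gene Cd3g rose by 1.46 ± 0.15. Probe sets named for the receptor segments Trbv1 and Trav9d-3 rose by 1.84 and 1.35. The adhesion gene Cd2 rose by 1.08 and the interleukin-7 receptor gene Il7r, carried by naive and memory T cells, by 0.89. Of the coreceptors, Cd8b1 read 3.74 to 5.30 in Ms4a1-high tumours and 3.11 to 3.83 in other tumours, a rise of 0.99, and Cd4 rose by 0.23. Only the lowest member fell within the other tumours' range for Cd8b1. The main Cd8a probe set differed by 0.03 (adjusted p = 0.814) and its other 4 probe sets by 0.11 to 0.62, and the Cd3e probe set differed by 0.16 (adjusted p = 0.151). Of 20 genes of cytotoxic and natural killer cells, 3 were called higher, among them the chemokine gene Ccl5 (1.004) and the lectin receptor gene Klrd1 (0.78). The effector genes Gzmb (-0.11), Prf1 (-0.04) and Ifng (-0.05) were not called. Of 13 genes of regulatory T cells and checkpoints, 0 were called by limma and 3 were higher at an unadjusted p under 0.05. Most genes of these 2 lists read low, and 5 of the 20 and 4 of the 13 passed the filter on low values.

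Of 18 measured chemokine and homing genes, 10 were called higher and 0 lower (median 0.31). Cxcl13, the follicular chemokine that attracts B cells, read 5.64 to 6.98 (median 6.41) in Ms4a1-high tumours and 4.81 to 6.22 (median 5.499) in other tumours on its probe set of highest mean. Of the 14, 9 exceeded every other tumour, and the difference was 0.82 ± 0.09 (SE, limma adjusted p = 1.17e-10). On its second probe set the difference was 2.40 ± 0.20 (adjusted p = 6.03e-14), with values of 5.82 to 8.26 in Ms4a1-high tumours and 3.59 to 7.02 in other tumours. Ccr7, the receptor that guides T cells and dendritic cells into lymph nodes, rose by 0.96 ± 0.10, the integrin gene Itgal by 0.88 and the lymphocyte quiescence factor gene Klf2 by 0.53. Cxcl12, a stromal chemokine, rose by 0.66, but in array set 1 alone its difference of 0.57 was not called (adjusted p = 0.0535). Ccl19 and Ccl21a were not analysed here.

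Of 18 genes of the lymphotoxin and NF-kB pathway, 3 were called higher. Ltb, which encodes the membrane-bound lymphotoxin beta of lymphocytes, read 5.55 to 8.30 (median 7.13) in Ms4a1-high tumours and 4.498 to 6.57 (median 5.52) in other tumours. Tumours 2424, 3547 and 3296 were the highest, and tumours 2421, 3572, 3355, 4957R and 3738 lay below the highest other tumour, with 2421 the lowest member. The difference was 1.52 ± 0.17 (SE, limma adjusted p = 3.55e-10). Cd40, the receptor through which T cells help B cells, rose by 0.30. The receptor gene Ltbr (-0.14) and the pathway genes Nfkb2 (0.02), Relb (0.04) and Map3k14 (0.07), downstream in the same route, were not called.

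Structural genes of lymphoid tissue were called in part, each count to be read against the share of 1.81% over all genes. Of 17 genes of high endothelial venules, the vessels through which lymphocytes enter lymph nodes, 1 was called higher. This was Glycam1, a mucin of those venules that mammary epithelium also secretes into milk. Glycam1 read 8.48 to 12.91 (median 10.35) in Ms4a1-high tumours and 3.03 to 12.84 (median 7.76) in other tumours. The lowest member lay above 25 of the 42 other tumours, but only 1 lay above all of them, and the difference was 2.66 ± 0.62 (SE, limma adjusted p = 0.00564, with the block 0.0230, in array set 1 alone 0.0612). The venule genes Chst4 (0.10) and Madcam1 (0.08) were not called. Of 13 genes of follicular dendritic cells 0 were called by limma and 5 were higher at an unadjusted p under 0.05, with Mfge8 at 0.02 and Coch at 0.02. Mfge8 averaged 12.52 in Ms4a1-high and 12.50 in other tumours, and Coch 3.08 and 3.06, near the bottom of the scale. Cr2, given above with the B cell genes, is not among these 13 and rose by 1.32. Of 14 germinal centre genes 1 was called higher, Rgs13, a regulator of G-protein signalling in germinal centre B cells, by 0.36 at values of 2.13 to 3.02 in Ms4a1-high tumours and 1.96 to 2.49 in other tumours, near the bottom of the scale. The germinal centre factor gene Bcl6 differed by -0.22 and S1pr2 by -0.05, neither called. Of 16 lymphatic endothelial genes 4 were called higher. Lyve1, a hyaluronan receptor of lymphatic vessels and some macrophages, read 6.09 to 8.23 in Ms4a1-high tumours and 3.46 to 7.51 in other tumours, a rise of 1.44 ± 0.24 (SE). Stab2, a scavenger receptor of sinus endothelium, rose by 0.65, and 12 of the 14 lay above every other tumour. Prox1, the factor that defines lymphatic endothelium, differed by 0.06 and was not called, and its other probe sets differed by -0.01 and 0.28. Whether the lymphoid RNA came from a lymph node in the tissue piece or from aggregates inside the tumour was not tested. Without the block, leaving out any of tumours 3004, 3355, 3568 and 3572 gave 1 follicular dendritic cell gene called, against 0 with all 14, and of the venule genes 2 were called with all 14 and 1 without any of 2424, 3296, 3547, 3572, 3738, 3825, 3864 and 4957R.

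Of the sinus and marginal zone macrophage genes, 5 of 14 measured without the marker Marco were called higher and 0 lower, and the median log2 difference over all 15 was 0.41. Timd4, a receptor for dying cells on tissue-resident macrophages, read 4.503 to 7.12 (median 5.78) in Ms4a1-high tumours and 3.13 to 4.94 (median 3.64) in other tumours. Of the 14, 11 lay above every other tumour, and the difference was 2.14 ± 0.15 (SE, limma without the filter, adjusted p = 1.09e-16). Cd209b, the lectin SIGN-R1, read 5.66 to 8.86 (median 7.63) in Ms4a1-high tumours and 4.38 to 6.83 (median 5.38) in other tumours, a difference of 2.19 ± 0.19 (SE, adjusted p = 2.49e-13). Its second probe set differed by 2.71. Siglec1, the sialoadhesin of subcapsular sinus and marginal metallophilic macrophages, did not follow, at 5.88 ± 0.14 in Ms4a1-high tumours and 5.88 ± 0.16 in other tumours (SD, n = 14 and 42). Of 18 tumour macrophage genes 0 were called by limma and 5 were higher at an unadjusted p under 0.05, all 18 with a difference above 0 (median 0.17). Of 21 dendritic cell genes 7 were called higher, with the largest rise in Spib (1.32), already given with the B cell genes. Also called were the maturation genes Cd83 (0.68) and Cd86 (0.59) and the plasmacytoid lectin gene Siglech (0.33), while the integrin gene Itgax differed by -0.00. Of 11 MHC class II genes 3 were called higher, H2-Ob, H2-Oa (0.57) and H2-DMb2 (0.26), all of the accessory peptide-loading molecules. H2-DMb2 was not called in array set 1 alone (adjusted p = 0.0908), but its probe set with the largest SD differed by 0.82 ± 0.09 (SE, adjusted p = 1.91e-10). Without the block 5 of the 11 were called, and 3 without any of tumours 2424, 3296, 3547, 3825 and 3864. The antigen-presenting chain gene H2-Aa differed by 0.37 (adjusted p = 0.378).

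**Figure D2:**
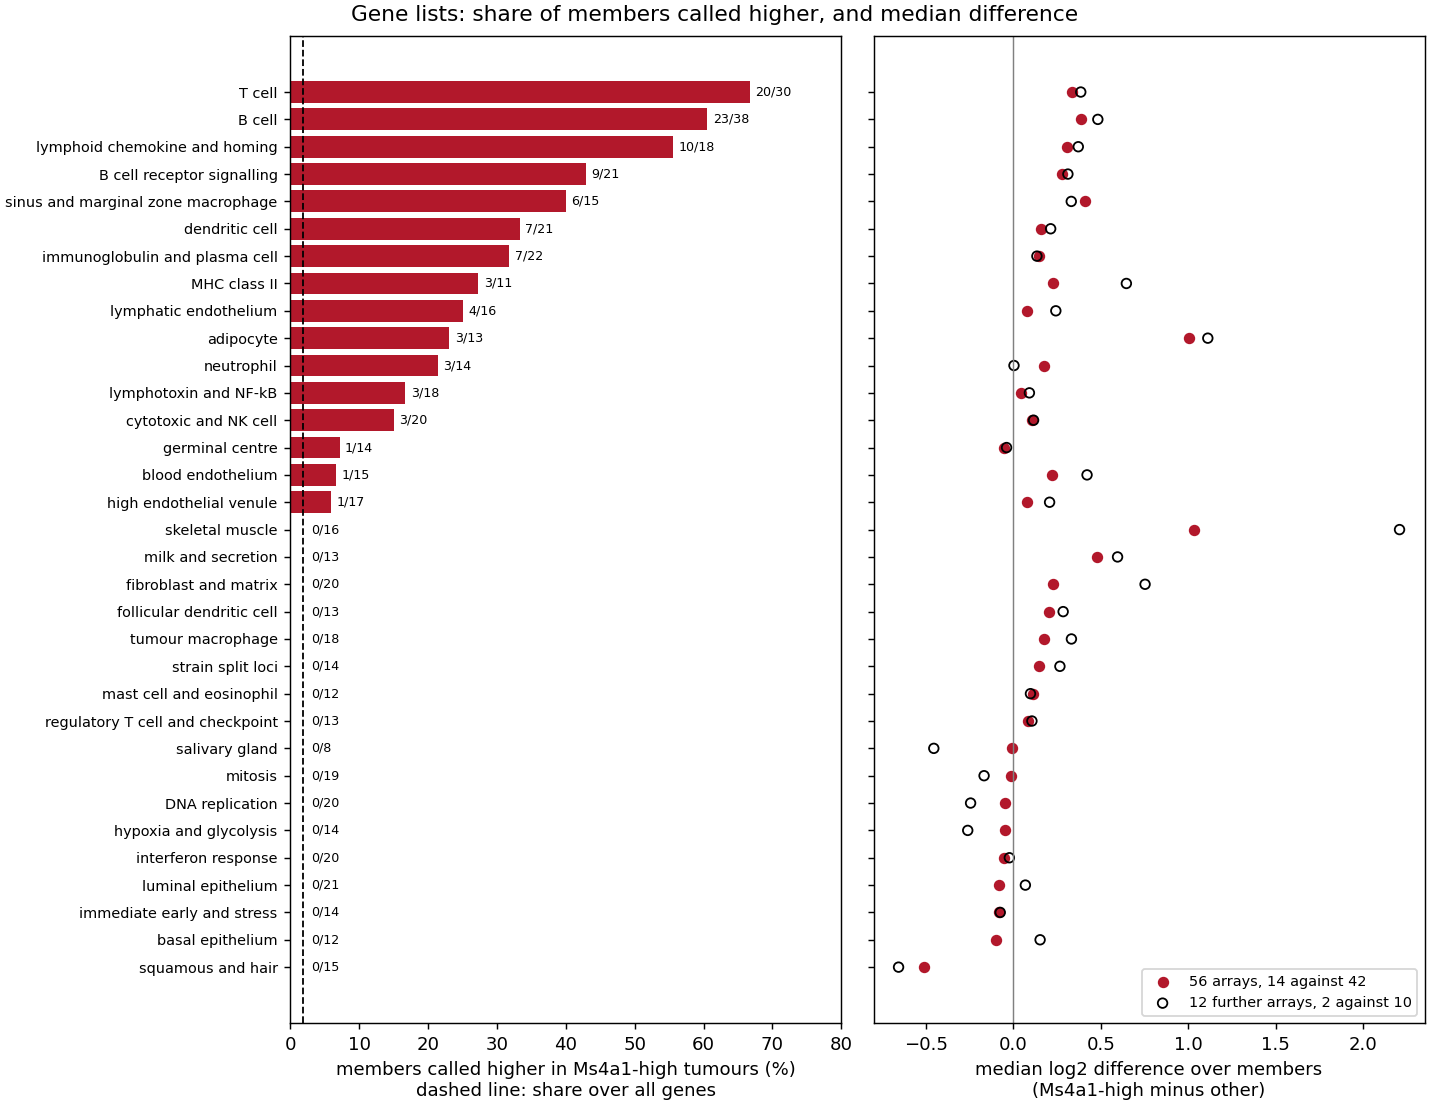
Left, percent of each list's measured members called higher in Ms4a1-high tumours, with the counts beside the bars and a dashed line at the share over all genes (1.81%). Right, median log2 difference over each list's members (Ms4a1-high minus other), filled for the 56 arrays and open for 12 further arrays. T cell, B cell and chemokine lists stood highest on the left, and adipocyte and skeletal muscle lists had medians above 1 with 3 and 0 members called.

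Some genes of neutrophils and fat were also called. Of 14 neutrophil genes 3 were called higher, Ngp, Camp and Mpo, all granule genes of immature neutrophils. Ngp read 4.39 to 8.27 (median 5.32) in Ms4a1-high tumours and 4.35 to 5.27 (median 4.67) in other tumours. It was above every other tumour in 7 of the 14, namely 2424, 3547, 3825, 3568, 4975, 3572 and 3738, and at the others' level in the rest, with a log2 difference of 1.18 ± 0.21 (SE, limma without the filter, adjusted p = 7.38e-05). Camp was raised in the same 7 tumours and rose by 0.65. Without the 3 members with Ms4a1 under 6, Mpo was no longer called (log2 difference 0.35, adjusted p = 0.117). Lcn2 (-0.07) and Mmp9 (0.04) were not called. S100a9 had the largest difference of the list, 1.36, but was not called either. Its values were 6.07 to 10.02 in Ms4a1-high tumours and 3.88 to 9.84 in other tumours. Of 13 adipocyte genes 3 were called higher, the fat droplet gene Cidea (1.24 ± 0.30), the adipokine gene Retn (1.18 ± 0.26) and the fat cell factor gene Pparg (0.81 ± 0.19; SE). All 13 had a difference above 0 (median 1.007), and 12 were higher at an unadjusted p under 0.05 (limma). The list's mean level was 8.52 (range 6.12 to 9.96) in Ms4a1-high tumours and 7.59 (range 5.78 to 9.20) in other tumours. Without the block 5 were called, and leaving out tumour 3572, whose Adipoq read 5.04, gave 11, while leaving out any of 2424, 3004, 3290, 3296, 3547, 3825 and 3864 gave 3. Of 16 skeletal muscle genes 0 were called by limma and 3 were higher at an unadjusted p under 0.05, at a mean list level of 8.96 (range 4.07 to 11.97) in Ms4a1-high tumours and 7.99 (range 4.19 to 11.17) in other tumours. The part of fat or muscle in the results above was not tested.

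Of 15 blood endothelial genes 1 was called higher, the tight junction gene Cldn5, and of 12 mast cell and eosinophil genes, 20 fibroblast and matrix genes and 13 milk genes 0 were called by limma, with medians of 0.12, 0.23 and 0.48. At an unadjusted p under 0.05 (limma), 10 of the 15 blood endothelial genes were higher, and 14 of the 15 had a difference above 0 (median 0.22). At the same limit 6 of the mast cell and eosinophil, 8 of the fibroblast and 5 of the milk genes were higher, and 1 mast cell and eosinophil gene was lower. Without tumour 3572 and without the block, 4 blood endothelial genes (2 with all 14), 3 mast cell and eosinophil genes (1 with all 14), 1 fibroblast gene and 1 tumour macrophage gene (0 with all 14) were called. Leaving out any of 3290, 3296, 3547, 3738, 3825 and 3864 gave 0 mast cell and eosinophil genes, and leaving out any of 2424, 3290, 3296, 3355, 3825 and 3864 gave 1 blood endothelial gene. Of the milk genes 1 was called without the block, 2 without tumour 4975 and 0 without any of 2424, 3355, 3547, 3572, 3738, 3825 and 3864. Of 21 luminal and 12 basal epithelial genes, 0 were called either way by limma, with medians of -0.08 and -0.10. At an unadjusted p under 0.05, 2 luminal genes were higher and 3 lower, and 0 basal genes were higher and 1 lower. Krt8 read 12.03 to 12.68 in Ms4a1-high tumours and 11.90 to 12.94 in other tumours (log2 difference -0.13, adjusted p = 0.288), and Epcam differed by -0.01 (adjusted p = 0.987). Of 19 mitosis, 20 DNA replication, 20 interferon response and 14 hypoxia genes 0 were called, with list medians between -0.05 and -0.01. Nor was any called of 15 squamous and hair genes (median -0.51, all 15 below 0), 8 salivary gland genes (-0.01) or 14 immediate early genes (-0.08). Of these 7 lists, 0 members passed even an unadjusted p of 0.05, except 1 salivary gland gene higher and 1 lower. Of the 7 genes called lower, Ephb6, a kinase-dead ephrin receptor, read 5.22 to 6.85 in Ms4a1-high tumours and 5.72 to 7.47 in other tumours, and fell by 0.55 ± 0.13 (SE, adjusted p = 0.00418). It was not called in array set 1 alone (adjusted p = 0.0634), and the ranges overlapped. Epha2, another ephrin receptor, fell by 0.37. At an Ms4a1 threshold of 5.5 neither was called (adjusted p = 0.107 for Ephb6 and 0.0575 for Epha2). Of 14 genes at loci where the mouse strains differ, 0 were called by limma and 1 was higher at an unadjusted p under 0.05. BC018473, which has 2 separate levels in these animals, was at the upper level in 10 of the 14 Ms4a1-high tumours and 20 of the 42 other tumours (adjusted p of its difference 0.485).

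Among genes in no list, the largest rises after the receptor segments were Tmem45b (1.29), Gimap8 (1.19), Ces1d (1.17) and Serpina1b (1.14). Gimap8 and Gimap1 (0.997) are GTPases of lymphocyte survival. Gpr18, a G-protein-coupled receptor of lymphocytes, read 5.07 to 6.65 in Ms4a1-high tumours and 3.999 to 5.18 in other tumours and rose by 1.03 ± 0.10 (SE, limma without the filter, adjusted p = 2.56e-12), with 13 of the 14 above every other tumour. Serpina1b, a protease inhibitor best known from liver, read 6.21 to 8.07 in Ms4a1-high tumours and 4.70 to 6.58 in other tumours, with 11 of the 14 above every other tumour. Kbtbd11 rose by 1.06, Cd52, a surface peptide of lymphocytes, by 0.79, and Arhgap15, a Rac regulator of blood cells, by 0.91. Abcd2 rose by 1.08, Adhfe1 by 0.95 and Slc36a2 by 0.865. In array set 1 alone Abcd2 and Slc36a2 were not called (limma adjusted p = 0.0908 and 0.0549). The part of fat in the rises of genes in no list was not tested.

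The 14 tumours differed among themselves. Tumours 4957R and 3290 had Ms4a1 values of 6.83 and 6.16, yet their Marco values of 4.80 and 4.40 and Timd4 values of 4.66 and 4.503 lay within the range of the other tumours. Tumour 3290 had one of the higher Cd3d values, 6.83, and tumour 4957R the second highest Jchain, 9.33. Tumour 4957R is also the only member in array set 3. Tumour 3355 showed the opposite pattern, with Marco at 7.26 and Jchain at 5.93, the lowest Jchain of the 14. Tumours 3572, 2421 and 3738, with the lowest Ms4a1 values of 5.58, 5.41 and 5.25, had Cd79b values of 5.35, 5.12 and 5.13, and of these 3572 and 3738 were among the 7 with raised Ngp. Over the 14, Cd79b was compared with 10 genes chosen after the values were seen. It correlated most strongly with Ltb (Pearson's r = 0.828, Spearman's rho = 0.767, permutation p adjusted over the 10 pairs 0.0034 and 0.0211), at r = 0.823 without the 2 tumours farthest from the median and 0.873 in the 13 tumours of array set 1. For Timd4 the values were r = 0.643 and rho = 0.692 (permutation, adjusted p = 0.0462 and 0.0257), and r = 0.566 without the 2 farthest tumours and 0.748 in array set 1. For the marker Marco, again given without a test, they were r = 0.609 and rho = 0.692, with r = 0.502 and 0.718. For Cd209b they were r = 0.615 and rho = 0.67 (permutation, adjusted p = 0.0462 and 0.0259), with r = 0.474 and 0.815. For Cd3d they were r = 0.609 and rho = 0.556 (permutation, adjusted p = 0.0462 and 0.0708), with r = 0.662 without the 2 farthest and 0.675 in array set 1. Cxcl13 gave r = 0.538 and rho = 0.521 (permutation, adjusted p = 0.0688 and 0.0851), with r = 0.561 and 0.534, and the fat gene Adipoq gave r = 0.51 and rho = 0.477 (adjusted p = 0.0688 and 0.1002), with r = 0.472 and 0.527. Lyve1 gave r = 0.404 and rho = 0.473 (permutation, adjusted p = 0.193 and 0.1002), with r = 0.3795 and 0.4485. For Jchain they were r = 0.377 and rho = 0.591 (permutation, adjusted p = 0.209 and 0.0582), with r = 0.456 and 0.371. For Ngp they were r = 0.04 and rho = 0.143 (permutation, adjusted p = 0.885 and 0.628), with r = -0.259 and 0.07. These values come from the same RNA of each tumour.

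**Figure D3:**
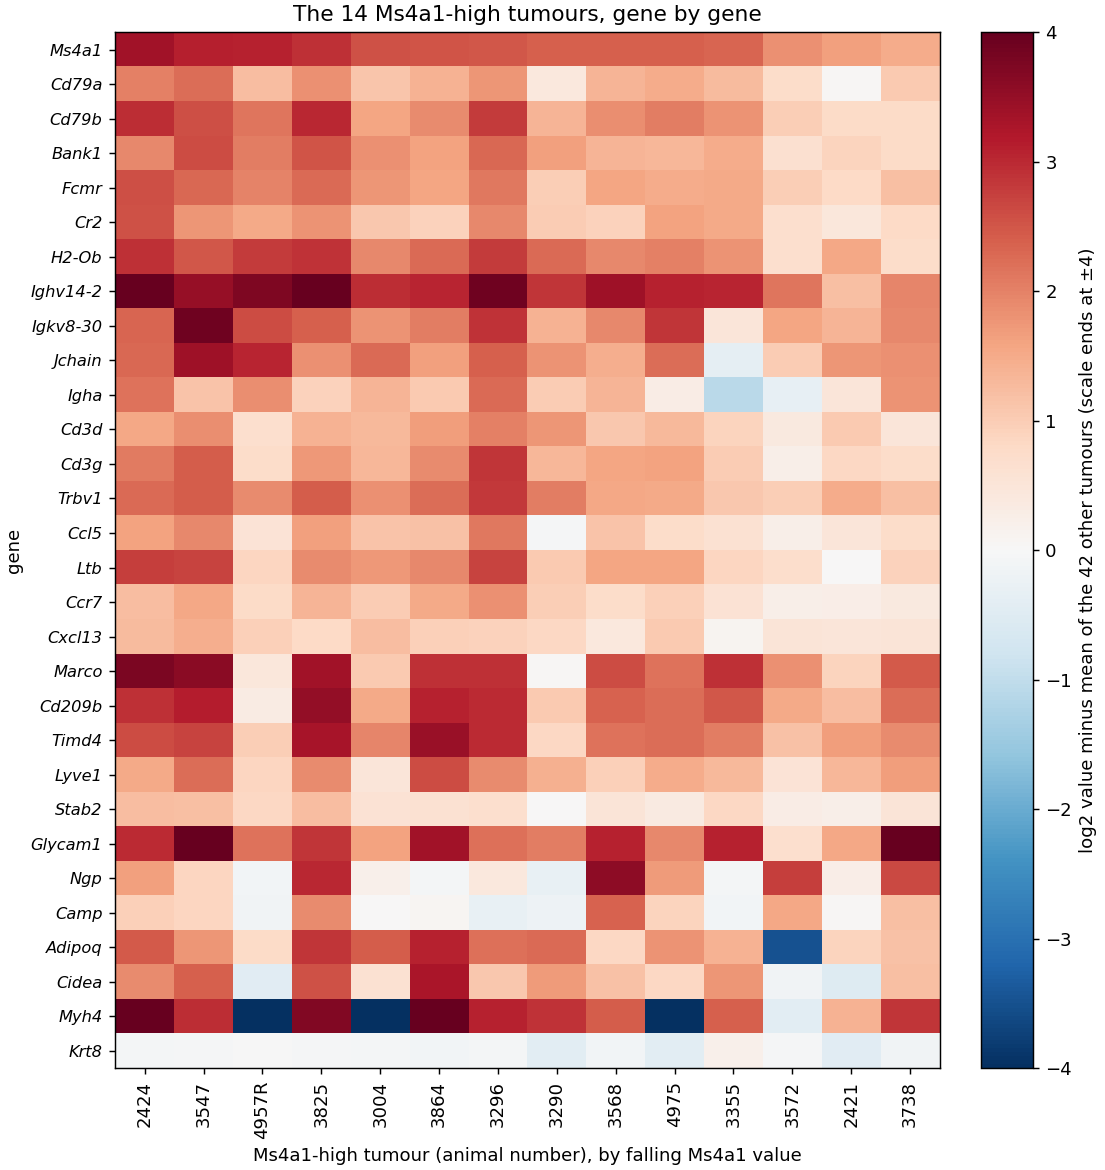
Values of 30 genes (rows) in the 14 Ms4a1-high tumours (columns, by falling Ms4a1), as the log2 value minus the mean of the 42 other tumours, in red where higher and blue where lower, with the colour scale ending at 4 either way. Cd79b, Bank1 and H2-Ob are red in all 14, Cd79a is near 0 in tumour 2421, Marco and Timd4 are pale in tumours 4957R and 3290, Ngp and Camp are red in 7 tumours, and Krt8 is near 0.

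The 12 arrays with an 18S mean of 8 or above, which 2434 probe sets separate exactly from all others, were set aside by the rule. They were split here at the same Ms4a1 threshold of 5, so genes of the same cells had to differ again. The values below describe that split and are no independent support. Of these 12, tumours 3296R and 3351R had Ms4a1 above 5, at 6.19 and 5.80, and the other 10 read 4.31 or lower. The number 3296 is also a member of the 14, whereas the kept array 3351 read 3.60 for Ms4a1 and is among the other tumours, so these pairs do not bear the same relation. Of the 219 genes called higher, 215 (98.2%) had a positive difference between these 2 and the other 10 arrays, against 55.1% of all genes tested, and their median difference was 0.56 there and 0.56 in the 56 arrays. Limma called 17 of the 219 with this small number of arrays, against 19 of all 12556 genes tested. An unadjusted p under 0.05 was found for 121 of the 219, against 913 of the 12556. Timd4 read 5.85 and 5.51 in these 2 arrays, against at most 3.94 in the 10, and Ighv14-2 read 5.84 and 5.83, against at most 4.05. For both genes the 2 arrays lay above all 10. Cd79b read 4.90 and 5.54, against at most 4.71, and Ltb 6.90 and 7.01, against at most 5.63. Of the 7 lower genes, 4 had a negative difference there and 3 a positive one, with Epha2 at -0.47 and Ephb6 at -0.05. A test of whether the difference itself differed between the 56 and the 12 arrays called 0 of the 12556 genes (limma, 718 with an unadjusted p under 0.05, 10 of them among the 219), treating the arrays that share the numbers 3296 and 3351 as independent.

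**Figure D4:**
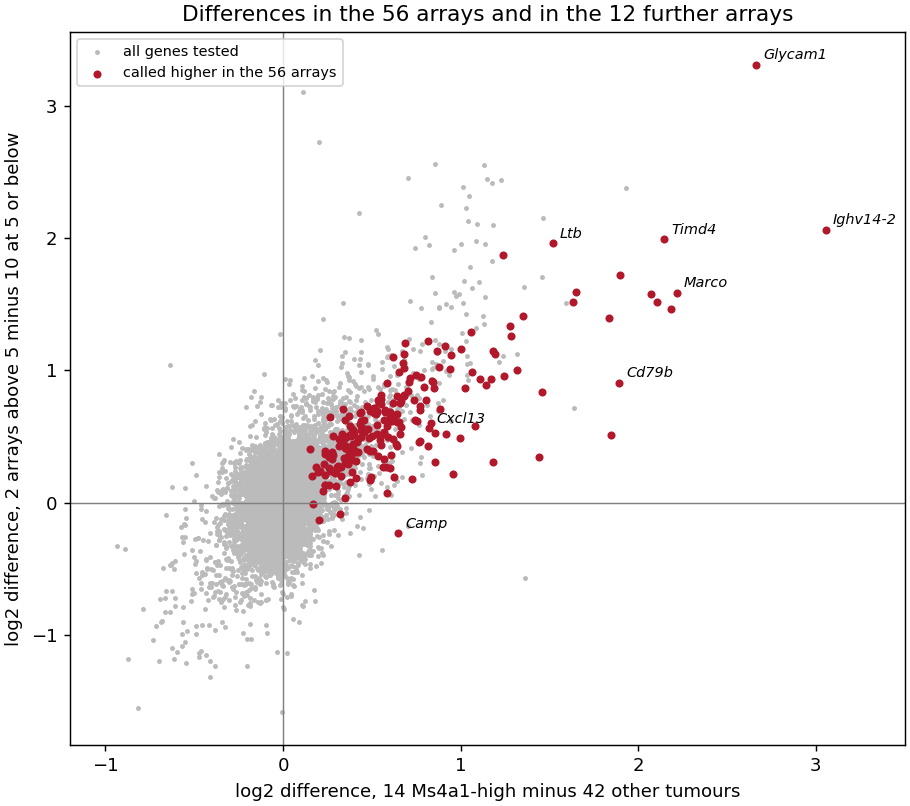
Log2 difference of each gene between the 14 Ms4a1-high and 42 other tumours (x axis) and between the 2 arrays above 5 and the 10 at or below 5 among the 12 further arrays (y axis), all 12556 tested genes in grey and the 219 called higher in the 56 arrays in red. Of the red points, 215 of 219 lie above 0 on the y axis, and Camp is one of the 4 that do not.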

How the data were processed

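Per the labels' protocols, tumour RNA was isolated by Trizol followed by RNeasy and its biotin-labelled copy was put on Affymetrix arrays. RMA is the method named in the submitters' processing notes, and the deposited values were read here as log2 from their range of 1.68 to 14.57; version and settings are not given in the sources used here. The precision is limited by the number of arrays. Among the 34958 probe sets that the platform annotation gives to 1 gene, the one of highest mean stood for its gene. A gene entered the counts if the 95th percentile of its values exceeded the median of all values, 5.42. Ms4a1-high and other tumours were compared with limma 3.58.1 (lmFit and eBayes, R 4.3.3), Benjamini-Hochberg adjusted, after a check on simulated data. Array sets are splits that 20 or more probe sets, from 10 or more chromosomes, made identically. Permutation tests used 100000 draws (scipy). Genes named are list members and, of no list, the up to 25 largest differences each way called with and without the block; other names were chosen after their values were seen. The members and the 33 gene lists (558 genes on the array) were chosen with earlier results of these data known, so their counts are a description. Some items are not reported here. Replicates are animal numbers, 1 array each in the 56; over all 68 arrays, numbers 3296 and 3351 have 2 arrays each, treated as independent in the fits that use the further arrays. Alternatives covered array sets, thresholds, probe set choice, filters, weights, RNA quality, scaling and leaving out each member.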

Additional observations from a re-analysis of the deposited data

How the results depend on the processing

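No paired analysis was possible because the labels form 1 group and the 2 classes of tumours share no replicate numbers. Without the block, 351 genes were higher and 37 lower. The count of higher genes moved beyond 1.5 times to 198 in array set 1 alone, 221 with a filter on the mean and 19 in the 12 further arrays (chosen after seeing the data), and ranged from 207 to 493 when 1 member was left out. The count of lower genes was 12 with array set as a block, 6 in array set 1 alone, 13 in the lower animal numbers, 18 over all 68 arrays with the block, 11 at an Ms4a1 threshold of 5.5, 23 with the filter on the mean, 62 with array weights, 19 with the Gapdh and Actb differences as covariates, 65 after another quantile normalisation and 0 in the 12 further arrays (limma), and ranged from 12 to 51 when 1 member was left out. Some of those settings held fewer arrays or genes, and the causes of the shifts were not tested. Of 98 named genes called in both fits, 88 stayed called in array set 1 alone and 18 in the 12 further arrays. In those 12 the sign turned for Spic (-0.0426), Lta (-0.0072), Camp (-0.23), Mpo (-0.0123), Eef2kmt (0.14), Fgfr4 (0.29) and Lrrc14 (0.13), none of them called there. No other alternative run turned the sign of a named gene. The 42 and 14 arrays limit what small differences can be called, and most genes that were not called may still differ.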
